A study of Mus musculus with 12 samples.

Results

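In N1E115 cells, a mouse neuroblastoma line described in the labels as NOS1-positive, 2018 sites near gene ends were bound by both HIF1A and ARNT at 4% O2. They were taken from 12586 HIF1A regions found in both peak lists at 4% O2 (reproducible regions). A site counted when it overlapped an ARNT reproducible region at 4% O2 by at least 1 bp, overlapped no ARNT reproducible region at 20% O2, and had its centre within 1 kb of either end of a protein-coding gene of the mm10 build. Of the 12586 regions, 5745 overlapped ARNT at 4% O2, and 5364 of these overlapped no ARNT region at 20% O2. The 2018 sites were the gene-end share of the 5364, and the others lay inside genes (1793) or between genes (1553). Chromatin immunoprecipitation and sequencing (ChIP-seq) was done in cells kept for 3 days at 4% O2 or at 20% O2, both with 5% CO2. Each antibody at each oxygen level had 2 peak lists, and 4 input samples were not used here. All 8 lists came from 1 cell line, and the labels do not say whether replicates were separate cultures, so the spread between lists may be technical. Peak lists hold no expression values, so the identity of the cells was not checked against markers.

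The sites were chosen by the HIF1A peaks at 4% O2 and the ARNT peaks at both oxygen levels, so the values of those 6 lists at the sites are descriptions and carry no test. HIF1A at 20% O2 and the DNA sequence were not part of the rule, but the rule does leave out sites by ARNT at 20% O2. The lists differed in size and form. HIF1A at 4% O2 had 42701 and 13655 peaks in replicates 1 and 2, and HIF1A at 20% O2 had 5393 and 13386. ARNT at 4% O2 had 24937 and 9918, and ARNT at 20% O2 had 7244 and 1808. Replicate 2 of HIF1A, at 4% and at 20% O2, was deposited as positions of 1 bp called against another input, whereas the other 6 lists hold intervals. No list gives read counts, so sequencing depth is unknown.

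HIF1A and ARNT are the subunits of the transcription factor HIF-1. In well-oxygenated cells HIF1A is hydroxylated by oxygen-dependent prolyl hydroxylases and degraded through the VHL ubiquitin ligase, while ARNT is present at all oxygen levels and also partners other factors. The dimer reads the hypoxia response element, whose core is ACGTG or GCGTG, and is known for activating genes of glucose use, mitochondrial turnover and blood supply.

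Promoter sequences show what the highest-ranked sites looked like. Each runs from 250 bases before to 50 bases after the gene start (RefSeq, GRCm38.p6, the build also called mm10) and is written 5′ to 3′ on the gene's strand, with capitals for ACGTG on either strand (CACGT when read on the other). They are 6 of the 7 highest-ranked promoters whose window lay wholly under a site (that of Kdm3a, which held no ACGTG, 1 GCGTG and no HIF1A position, is not printed) and, last, the lowest-ranked such promoter without ACGTG (Gorasp2, mean rank 27.1). The windows are chr7:138909457-138909756 (minus strand) for Bnip3, chr11:54100674-54100973 (plus) for P4ha2, and chr16:36071512-36071811 (minus) for Fam162a. Those of the other genes are chr10:59951721-59952020 (minus) for Ddit4, chr6:29272376-29272675 (plus) for Hilpda, chr2:71872974-71873273 (plus) for Pdk1, and chr2:70661259-70661558 (plus) for Gorasp2.
Bnip3: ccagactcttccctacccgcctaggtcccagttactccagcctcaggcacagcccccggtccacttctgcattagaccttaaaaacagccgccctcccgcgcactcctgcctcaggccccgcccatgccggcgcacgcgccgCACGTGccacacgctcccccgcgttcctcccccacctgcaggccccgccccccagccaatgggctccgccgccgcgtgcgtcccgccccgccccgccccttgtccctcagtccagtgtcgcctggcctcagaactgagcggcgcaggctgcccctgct
P4ha2: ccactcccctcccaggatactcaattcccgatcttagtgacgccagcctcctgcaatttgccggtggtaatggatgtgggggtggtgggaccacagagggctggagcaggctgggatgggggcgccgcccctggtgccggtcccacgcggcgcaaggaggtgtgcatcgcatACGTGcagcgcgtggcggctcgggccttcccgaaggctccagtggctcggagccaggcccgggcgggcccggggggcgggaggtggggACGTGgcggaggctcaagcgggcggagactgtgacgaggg
Fam162a: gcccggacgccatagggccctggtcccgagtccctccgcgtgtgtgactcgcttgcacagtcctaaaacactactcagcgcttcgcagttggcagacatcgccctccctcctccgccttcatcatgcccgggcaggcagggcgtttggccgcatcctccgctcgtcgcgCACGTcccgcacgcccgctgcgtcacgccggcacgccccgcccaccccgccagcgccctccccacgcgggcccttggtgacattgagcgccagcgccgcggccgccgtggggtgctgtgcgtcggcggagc
Ddit4: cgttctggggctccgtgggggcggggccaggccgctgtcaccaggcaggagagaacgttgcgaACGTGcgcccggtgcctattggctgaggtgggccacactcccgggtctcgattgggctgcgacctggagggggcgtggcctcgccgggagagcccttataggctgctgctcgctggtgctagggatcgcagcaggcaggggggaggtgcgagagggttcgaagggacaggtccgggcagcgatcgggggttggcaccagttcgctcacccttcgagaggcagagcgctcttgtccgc
Hilpda: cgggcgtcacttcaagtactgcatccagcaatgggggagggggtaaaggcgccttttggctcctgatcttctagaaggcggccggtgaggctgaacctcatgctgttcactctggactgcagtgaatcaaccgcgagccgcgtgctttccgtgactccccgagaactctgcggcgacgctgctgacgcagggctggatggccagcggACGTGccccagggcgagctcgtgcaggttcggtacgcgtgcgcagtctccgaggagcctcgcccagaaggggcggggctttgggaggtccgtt
Pdk1: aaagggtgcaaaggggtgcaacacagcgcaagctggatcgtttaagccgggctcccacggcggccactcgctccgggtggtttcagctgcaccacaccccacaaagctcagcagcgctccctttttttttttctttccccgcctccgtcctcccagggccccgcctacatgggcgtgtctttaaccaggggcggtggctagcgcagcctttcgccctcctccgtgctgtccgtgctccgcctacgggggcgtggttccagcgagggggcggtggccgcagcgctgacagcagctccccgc
Gorasp2: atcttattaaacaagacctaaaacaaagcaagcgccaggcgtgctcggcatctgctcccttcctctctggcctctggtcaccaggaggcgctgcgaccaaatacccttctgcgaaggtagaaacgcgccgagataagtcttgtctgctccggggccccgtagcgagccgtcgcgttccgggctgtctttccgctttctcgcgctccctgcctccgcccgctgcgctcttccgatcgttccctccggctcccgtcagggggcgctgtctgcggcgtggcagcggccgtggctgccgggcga

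In 5 of the 7 highest-ranked windows an ACGTG had its centre within 25 bp of the 1 bp HIF1A position of replicate 2 at 4% O2. In the Fam162a promoter the motif centre stood 79 bp upstream of the start and 1 bp from the HIF1A position. In the Hilpda promoter it stood 41 bp upstream and 2 bp away. The Bnip3 promoter held the palindrome CACGTG, which matches on both strands, 105 and 106 bp upstream, and the HIF1A position was 6 and 7 bp away. In the Ddit4 promoter the distance was 10 bp, and in the P4ha2 promoter it was 16 bp for the upstream of 2 motifs. The Pdk1 window, under the site with the highest mean rank, held no ACGTG and 2 copies of GCGTG, 39 and 115 bp from the HIF1A position. Its site was 2192 bp wide and thus reached well beyond the window printed.

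Site strength was compared within each list by percentile rank, the position of a site's highest peak among all scores of that list, with 100 for the top. The score is the authors' own value per peak, and ranks from lists of different length do not measure change. By mean rank over the 4 lists at 4% O2, the 20 highest sites all stood at 99.54 or above, and none ranked below 98.7 in any of these lists. Their median width was 1482 bp (588 to 2478 bp), against a median of 309 bp (99 to 2787 bp) over all 2018 sites. Highest was the site 403 bp from the start of Pdk1, a kinase that inhibits pyruvate dehydrogenase. Next came sites at Bsg, the chaperone of lactate transporters, at Kdm3a, a histone H3K9 demethylase, and at Bnip3, a mitophagy receptor.

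At 4% O2 the Pdk1 site scored 760.8 and 976.9 in the HIF1A lists and 387.0 and 1306 in the ARNT lists. At 20% O2 it had no HIF1A peak in replicate 1 and one scored 194.3 in replicate 2, and ARNT scored 15.96 in replicate 1 with no peak in replicate 2. The median scores of whole lists were 13.09 and 12.23 (HIF1A) and 10.47 and 14.71 (ARNT) at 4% O2, and 10.02 and 9.081 (HIF1A) and 9.161 and 9.661 (ARNT) at 20% O2. Scores have no stated scale and were not compared between lists, but the Pdk1 site was near the top of each of the lists at 4% O2. The Bnip3 site scored 762.4 and 799.6 (HIF1A) and 424.9 and 1161 (ARNT) at 4% O2, and at 20% O2 it had a single peak, scored 167.7 in HIF1A replicate 2. The Bsg site scored 911.2 and 945.8 (HIF1A) and 551.0 and 942.8 (ARNT) at 4% O2, and at 20% O2 it had peaks in HIF1A replicate 2 (226.9) and ARNT replicate 2 (21.34). Each of these 3 sites was thus among the highest of every list at 4% O2, and each also had a high-scoring HIF1A peak in 1 of the lists at 20% O2.

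**Figure D1:**
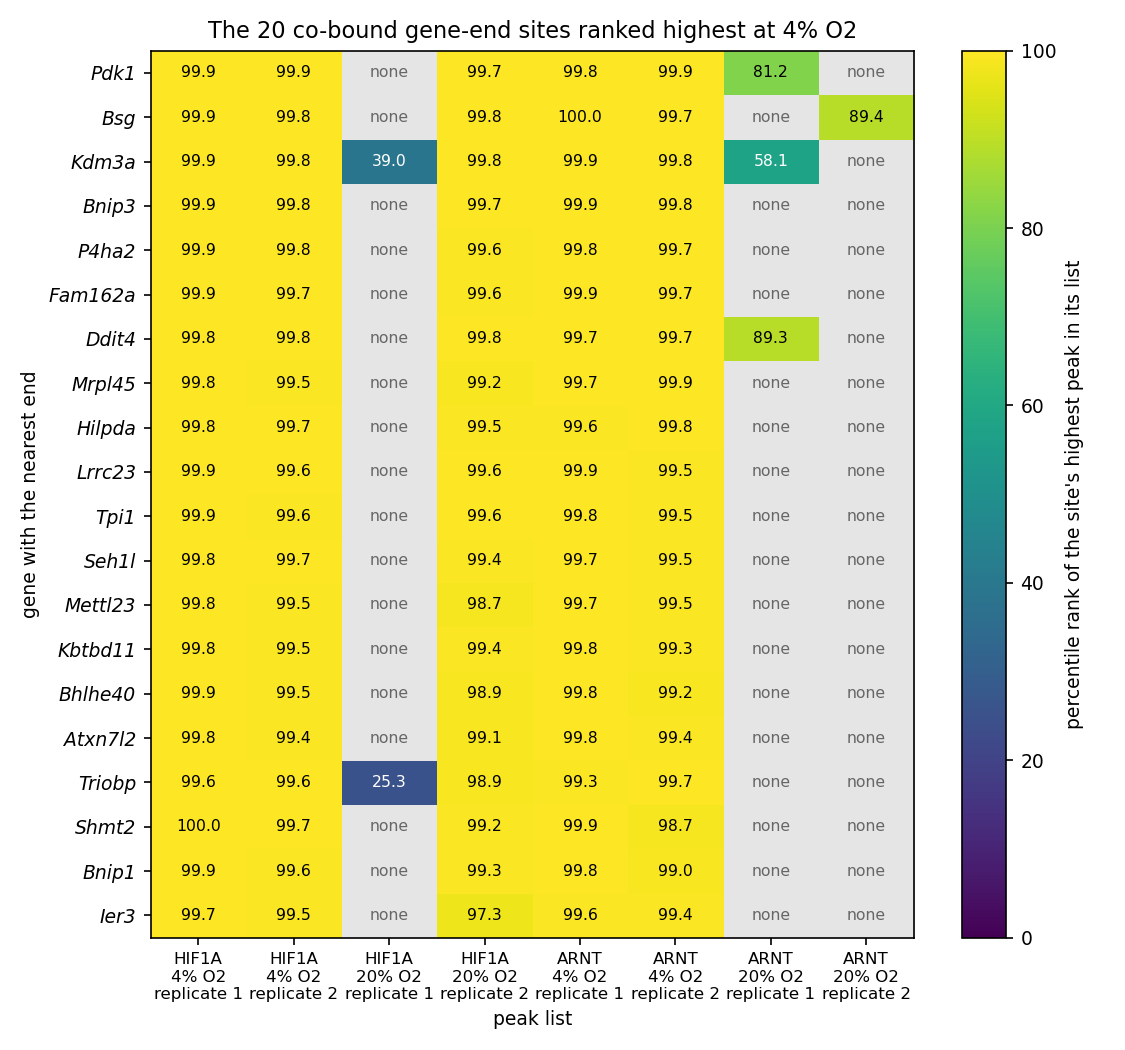
Percentile rank of the highest peak (colour and number, no unit, 100 for the top of a list) at the 20 highest co-bound gene-end sites (down) in each of the 8 peak lists (across), with grey for no peak. All 20 sites ranked at 98.7 or more in the 4 lists at 4% O2, and all 20 had a HIF1A peak in replicate 2 at 20% O2, while 2 had one in replicate 1.

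All 20 of these sites had a HIF1A peak in replicate 2 at 20% O2, at rank 97.3 or above. In replicate 1 at 20% O2 a peak was present at Kdm3a (rank 39.0) and Triobp (25.3) alone, so 2 of 20 sites had one. ARNT at 20% O2 had a peak at 3 of the 20 in replicate 1, at Pdk1 (81.2), Kdm3a (58.1) and Ddit4 (89.3), and at 1 in replicate 2, at Bsg (89.4). The 2 HIF1A lists at 20% O2 thus gave opposite pictures of the same 20 sites, as the plot of ranks by list shows.

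Over all 2018 sites the median rank at 4% O2 was 88.3 and 73.0 in the HIF1A lists and 76.2 and 68.8 in the ARNT lists. Co-bound sites inside genes had medians of 92.0 and 77.0 (HIF1A) and 77.8 and 65.9 (ARNT), so gene-end sites were not the higher-ranked kind for HIF1A. Gene-end HIF1A regions without ARNT, 1244 in number, had lower HIF1A medians of 66.5 and 34.7. Mean ranks of the co-bound gene-end sites ran down to 11.5, and 422 of 2018 stood at 90 or above. A rank in the ARNT lists is that of the ARNT region underneath, which 68 of the sites shared with a neighbouring site.

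Sites gathered at gene starts. Strand was known for the nearest gene of 1632 of 2018 sites (80.9%), and the nearer end was the start at 1558 of them (95.5%, 95% Wilson interval 94.3 to 96.4, which covers counting of sites only). At the other gene-end classes this share was 91.8% (924 of 1006) for HIF1A without ARNT and 95.1% (137 of 144) for sites that also overlapped an ARNT region at 20% O2. The centre lay a median of 36 bp upstream of the start (quartiles 130 bp upstream and 79 bp downstream). It was upstream at 968 of 1558 sites (62.1%) and within 250 bp at 1125 (72.2%). The fullest bin of 50 bp was the one directly upstream of the start, with 265 sites, and the bins before it held 211 and 170.

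**Figure D2:**
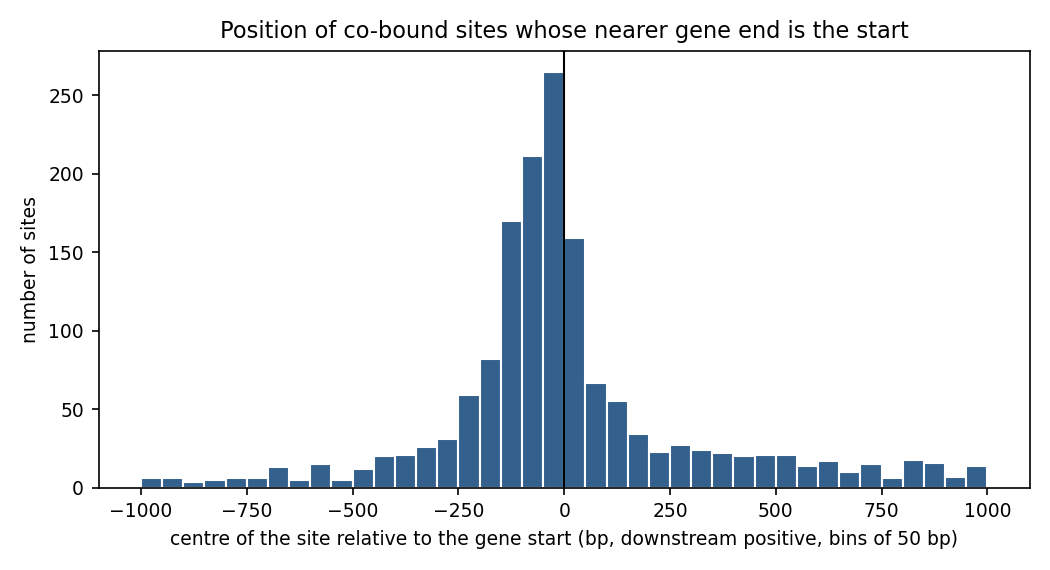
Number of co-bound sites (vertical axis) by the position of the site's centre relative to the gene start in bp (horizontal axis, bins of 50 bp, downstream positive), for the 1558 sites whose nearer gene end was a start. Counts peak just upstream of the start, with 265 sites in the bin that ends there.

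Co-bound sites lay at gene ends more often than HIF1A regions without ARNT. A centre within 1 kb of an end was found for 37.6% of the 5364 co-bound regions without ARNT at 20% O2, against 19.8% of HIF1A regions without ARNT and 27.6% of all 12586. Co-bound regions that also had ARNT at 20% O2 reached 44.1% (168 of 381). These shares carry no test, since the rule fixes the distance. The site's centre was a median of 125 bp from the nearer end (quartiles 47 and 321 bp). At 371 sites (18.4%) the ends of more than 1 gene lay within 1 kb, and 193 (9.56%) lay at the starts of 2 genes on opposite strands. Just inside the limit were sites at Jun (998 bp), Spred2 (997 bp) and Hnrnpu (994 bp), with mean ranks of 78.11, 68.68 and 83.58. Just outside were regions at Mthfd1l (1002 bp), Me1 (1003 bp) and Ppp2r3a (1005 bp), of which the one at Mthfd1l, a mitochondrial folate enzyme, had a mean rank of 99.02. Mthfd1l also had a site inside the limit, 199 bp from its start, with a mean rank of 98.16.

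Sites nearer to the other end of a gene numbered 74 (4.53% of the 1632 with strand). The highest, chr6:124769386-124770575 at the end of Lrrc23, also lay 307 bp from the start of Eno2, the neuronal enolase of glycolysis. The site at the end of Shmt2, the mitochondrial serine hydroxymethyltransferase, also lay 153 bp from an end of Ndufa4l2, which replaces a subunit of the respiratory chain in low oxygen. Other high sites of this kind were at Actl10 (mean rank 99.49), at Sncb, which encodes beta-synuclein (99.39), and at Tut7, a terminal uridylyltransferase (98.92). Adm, which encodes the vasodilator peptide adrenomedullin, had its higher site 851 bp from the other end (98.62, chr7:110629964-110631378) and another 833 bp from the start (42.69). For these sites the gene named is the one with the nearest end, and which gene the site serves was not measured.

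The 2 HIF1A lists at 20% O2 differed widely at these sites. Replicate 2 had a peak at most of them and replicate 1 at few, so whether HIF1A was called there at 20% O2 depended on the list. Of 2018 sites, 1212 (60.1%, 57.9 to 62.2) had a HIF1A peak in replicate 2 at 20% O2, against 53.4% of all 12586 HIF1A regions. In replicate 1 it was 92 sites (4.56%, 3.73 to 5.56), against 22.4% of all regions. No HIF1A peak at 20% O2 was found at 805 sites (39.9%, 37.8 to 42.0), against 45.3% of all regions. A peak in 1 list was found at 1122 (55.6%, against 33.5% of all regions), of which 1121 were in replicate 2. A peak in both lists was found at 91 (4.51%, against 21.2%), and a reproducible HIF1A region at 20% O2 overlapped 81 (4.01%, against 19.7%). Neither antibody had any peak at 20% O2 at 738 sites (36.6%, against 42.6%). All 12586 regions include those that overlapped ARNT at 20% O2, which the rule leaves out of the sites.

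**Figure D3:**
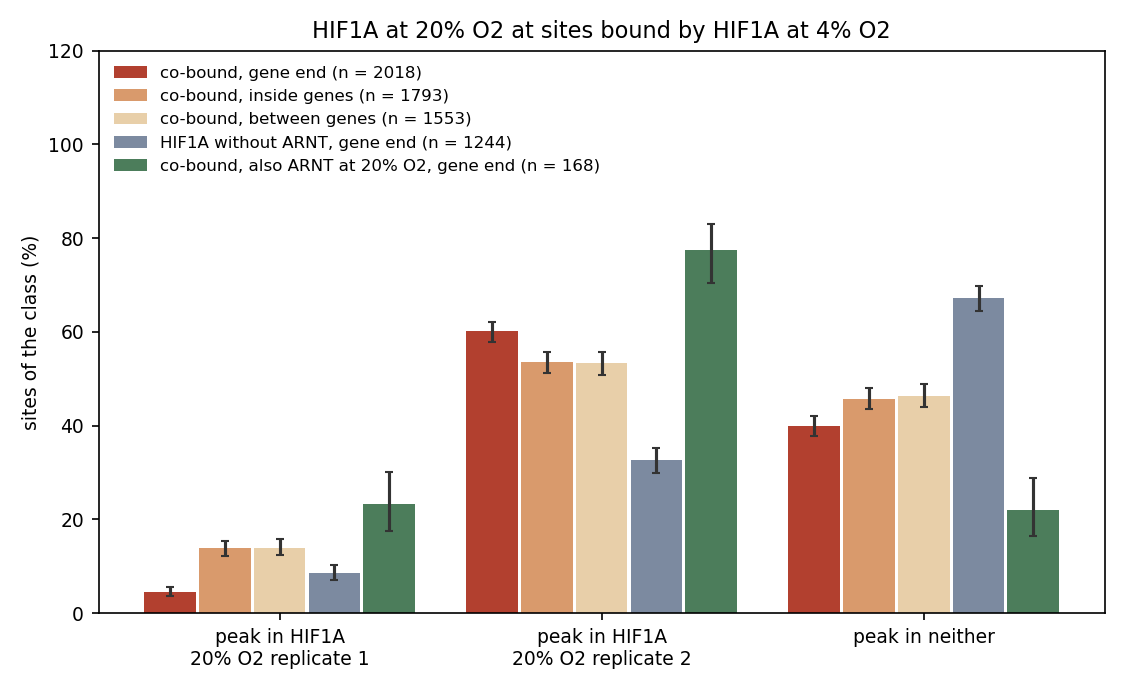
Share of sites (vertical axis, %) with a HIF1A peak at 20% O2 in replicate 1, in replicate 2 or in neither, for co-bound gene-end sites and 4 other classes of HIF1A regions at 4% O2, with 95% Wilson intervals that cover counting of sites only. The co-bound gene-end sites have the lowest bar in replicate 1 (4.56%), and in replicate 2 (60.1%) their bar is below that of gene-end sites with ARNT also at 20% O2 (77.4%) and above the other 3.

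Set against 3 of 4 other classes the replicates went opposite ways, and against gene-end sites with ARNT also at 20% O2 they went the same way. A HIF1A peak in replicate 1 at 20% O2 was found at 4.56% of gene-end co-bound sites, against 13.8% of co-bound sites inside genes and 14.0% of those between genes. In replicate 2 the shares were 60.1% at gene ends, 53.5% inside genes and 53.3% between genes. The difference to sites inside genes was −9.27 percentage points in replicate 1 and 6.57 in replicate 2, a mean of −1.35 (two-sided exact permutation test over the 2 lists, p = 1.0). To sites between genes it was −9.48 and 6.81 points, a mean of −1.34 (same exact test, p = 1.0). Against gene-end HIF1A regions without ARNT it was −3.96 and 27.5 points, a mean of 11.8 (same exact test, p = 1.0), from shares of 8.52% and 32.6% in that class. Against the 168 gene-end sites that also overlapped ARNT at 20% O2, the share was lower in both lists, with differences of −18.7 and −17.3 points and a mean of −18.0 (same exact test, p = 0.5), from shares of 23.2% and 77.4% in that class. With 2 lists this test cannot give a p below 0.5. The 168 sites were set apart by ARNT at 20% O2, so that comparison is a description. Whether the use of ARNT at that oxygen level in the rule moved the HIF1A shares was not tested. The replicates also differed in the form of the list, in the input they were called against and in sequencing runs, and these cannot be told apart from the replicate.

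Higher-ranked sites had a HIF1A peak at 20% O2 more often in both lists. The sites were put into 4 equal groups by mean rank at 4% O2 (504 or 505 sites each). The share with a replicate 2 peak was 39.8% in the lowest group, 47.0% in the second, 64.1% in the third and 89.3% in the highest. For replicate 1 the shares were 2.57%, 4.37%, 4.76% and 6.53% in the same order. Sites with no HIF1A peak at 20% O2 made up 60.2% of the lowest group and 10.7% of the highest. The groups were not matched for width, and the 20 highest sites had a median width of 1482 bp, against 309 bp over all sites.

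The highest site without a HIF1A peak at 20% O2 was at the other end of Anapc4, a subunit of the anaphase-promoting complex, with ranks of 98.4 and 94.6 (HIF1A) and 96.9 and 95.5 (ARNT) at 4% O2. Next was the site between Entpd5 and Bbof1 (mean rank 95.94). Ppp1r3b, which targets protein phosphatase 1 to glycogen, Tnpo1, a nuclear import receptor, and Ubl7 followed at 95.33, 95.30 and 95.22. None of these 5 had an ARNT peak at 20% O2 either. The highest sites with a HIF1A peak in both lists at 20% O2 were at Kdm3a, Triobp, Adck5, Wsb1 and Gmppa. The Gmppa site, at a regulator of GDP-mannose synthesis, ranked 78.3 and 99.3 for HIF1A and 98.4 for ARNT replicate 1 at 20% O2. The Wsb1 site, at a ubiquitin ligase adaptor, ranked 57.7 and 98.98 for HIF1A and 68.9 for ARNT replicate 1.

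ARNT peaks in a single list at 20% O2 were allowed by the rule, which needed both. Replicate 1 had a peak at 325 sites (16.1%, against 24.8% of all HIF1A regions) and replicate 2 at 9 (0.446%, against 7.89%). No ARNT peak of either list lay at 1684 sites (83.4%, against 74.8%). The rule itself moves all 3 of these shares. Where replicate 1 had a peak its median rank was 45.5.

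The sites lay within 1 kb of an end of 2239 of 21631 protein-coding genes (10.4%). A further 190 genes had a co-bound region only of the kind that also overlapped ARNT at 20% O2 (0.878%), 1208 had HIF1A without a co-bound region (5.58%), and 17994 had no HIF1A region at 4% O2 there (83.2%). Most genes had 1 site (2086), 151 had 2, and Gls2 and Sncb had 3. Gls2 encodes a glutaminase, and its sites had mean ranks of 34.52, 50.28 and 68.02, so its count came with middling ranks. By chromosome the share of genes with a site ran between 4.45% on X and 16.1% on chromosome 15.

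**Figure D4:**
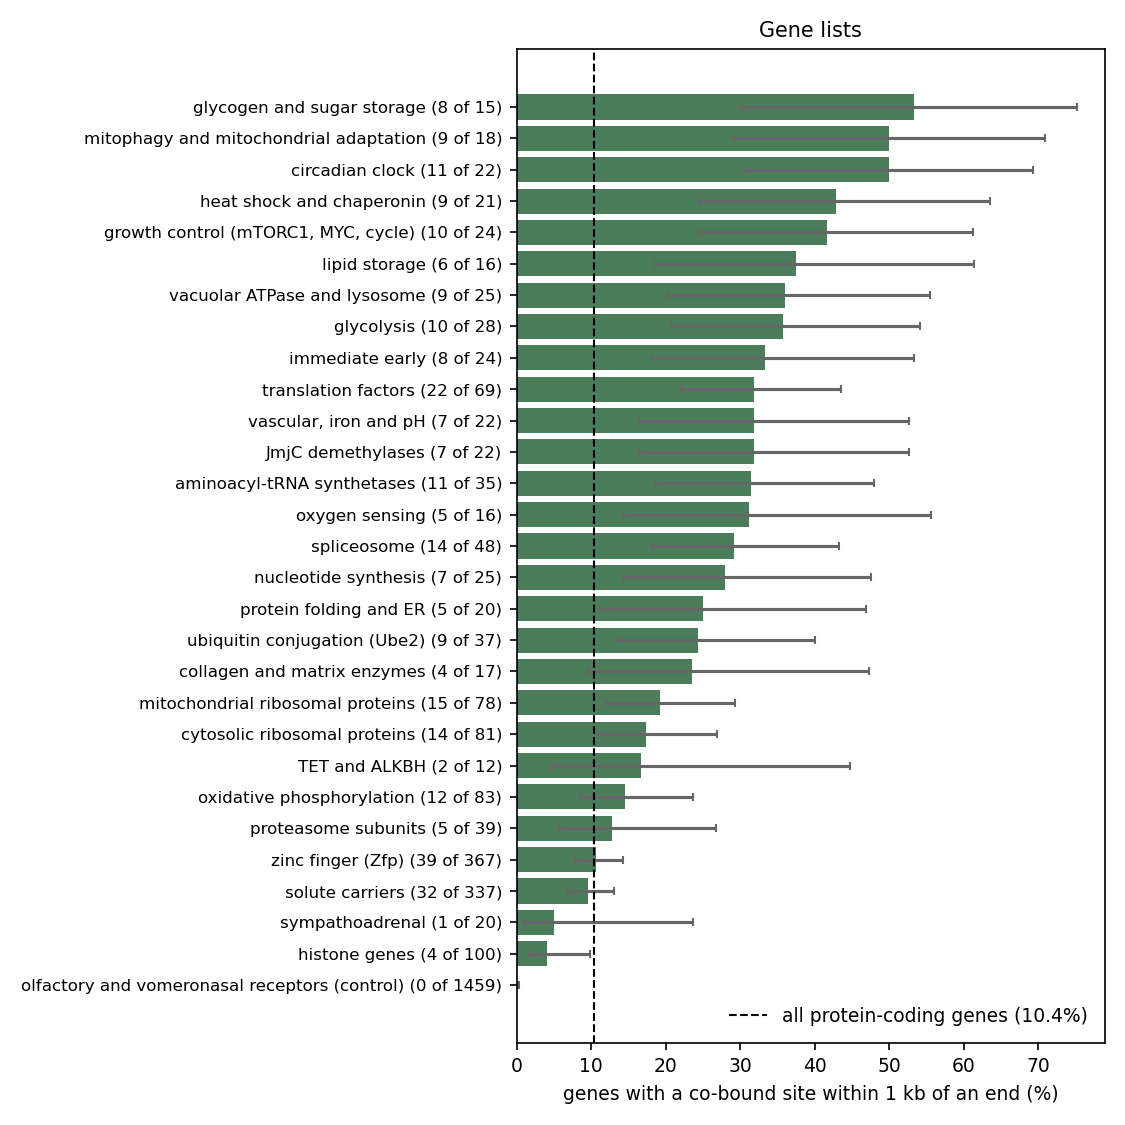
Share of the genes of each list with a co-bound site within 1 kb of an end (horizontal axis, %), with 95% Wilson intervals for counting of genes and a dashed line for all protein-coding genes (10.4%). Glycogen genes (8 of 15) stand at the top, followed by clock genes (11 of 22) and mitochondrial turnover genes (9 of 18), and olfactory and vomeronasal receptors (0 of 1459) at the bottom.

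Gene lists were counted by how many of their genes had a site. They were chosen with earlier results of these data known, so a count is a description and carries no test. The background of 10.4% includes 1459 olfactory and vomeronasal receptor genes, none of which had a site (0 of 1459, upper 95% limit 0.263%), and without them it is 11.1%. Among the 3637 genes with any HIF1A region at 4% O2 within 1 kb of an end, 61.6% had a co-bound site of the kind described and 33.2% had HIF1A without a co-bound region. Beside that 61.6%, oxygen sensing (55.6%), oxidative phosphorylation (54.5%), immediate early (61.5%) and blood supply, iron and pH genes (63.6%) were close or lower. Mitochondrial turnover (81.8%), growth control (76.9%), lipid storage (85.7%) and JmjC genes (87.5%) were higher. Housekeeping groups also lay on both sides of 61.6%. Aminoacyl-tRNA synthetases (91.7%), nucleotide synthesis (87.5%), spliceosome (77.8%), translation factor (71.0%), heat shock and chaperonin (69.2%) and ubiquitin-conjugating genes were higher. Cytosolic ribosomal (60.9%), zinc finger (52.0%), solute carrier (48.5%), proteasome (45.5%), protein folding (45.5%), vacuolar ATPase and histone genes were close or lower. A share above 10.4% therefore does not by itself set a list apart from other genes with HIF1A.

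Glycolysis and pyruvate handling had 10 of 28 genes with a site (35.7%), and 10 of the 17 with any HIF1A region at an end (58.8%). They covered glucose entry and trapping (Slc2a1, Hk2), the middle of the pathway (Gpi1, Aldoc, Tpi1, Eno2), lactate transport (Slc16a1, Slc16a3) and the pyruvate dehydrogenase kinases Pdk1 and Pdk3. The Hk2 site, 35 bp from the start of the hexokinase gene, ranked 99.8 and 99.4 (HIF1A) and 99.5 and 99.4 (ARNT) at 4% O2, and 99.4 in HIF1A replicate 2 at 20% O2. The Tpi1 site, at triosephosphate isomerase, ranked 99.9 and 99.6 (HIF1A) and 99.8 and 99.5 (ARNT) at 4% O2, and another site at the other end of that gene had a mean rank of 58.71. The glucose transporter gene Slc2a1 (mean rank 97.42) and the lactate exporter gene Slc16a3 (97.01) followed. A further 5 genes, Pfkl, Gapdh, Pgk1, Pgam1 and Eno1, had co-bound regions that also overlapped ARNT at 20% O2 and are therefore no members. Slc2a3 and Pfkfb3 had HIF1A without a co-bound region, and Ldha, Pkm and Aldoa were among 11 with no HIF1A region within 1 kb of an end. Co-binding at 4% O2 thus reached 15 of 28 genes, of which the rule on ARNT at 20% O2 set aside 5.

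Glycogen genes had the highest share, 8 of 15 (53.3%), and all 8 with any HIF1A region at an end had a co-bound site. They encode the enzymes that interconvert sugar phosphates (Pgm1, Pgm2), make UDP-glucose (Ugp2), build the polymer (Gys1, Gbe1), break it down (Pygl) and target its phosphatase (Ppp1r3b, Ppp1r3c). The Pgm1 site ranked 99.8 and 99.4 (HIF1A) and 99.8 and 98.6 (ARNT) at 4% O2, and the Gys1 site 99.7 and 99.5 (HIF1A) and 99.4 and 98.9 (ARNT). Gbe1, the branching enzyme gene, had 2 sites over a shared ARNT region, at 149 and 993 bp from the start. Lipid storage had 6 of 16 genes with a site, led by Hilpda, an inhibitor of triglyceride breakdown at lipid droplets. Of the others, the lipid droplet coat gene Plin2 had a low mean rank of 40.80.

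Mitochondrial turnover and adaptation had 9 of 18 genes with a site. Bnip3 and its relative Bnip3l (mean ranks 99.84 and 99.18) encode mitophagy receptors, and Higd1a (99.45) a respiratory chain factor of low oxygen. Cox4i2 (96.58) encodes the cytochrome oxidase subunit used in low oxygen, and Ndufa4l2 had a second site 8 bp from an end (95.43). The site assigned to Lonp1, the mitochondrial protease that degrades the regular form of that subunit, lay 206 bp from its start and 198 bp from that of Catsperd (99.41). Oxidative phosphorylation genes had 12 of 83 with a site (14.5%) and 10 with HIF1A without a co-bound region. Mitochondrial ribosomal proteins had 15 of 78 (19.2%), and both shares were above the 10.4% of all genes. Among genes with any HIF1A region at an end the shares were 54.5% and 65.2%, beside 61.6% over all such genes.

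Among genes of oxygen sensing, 5 of 16 had a site. Egln1, the main HIF prolyl hydroxylase, ranked 99.3 and 98.4 (HIF1A) and 99.03 and 95.6 (ARNT) at 4% O2, and 86.6 in HIF1A replicate 2 at 20% O2. Vhl, whose product recognises hydroxylated HIF1A, ranked 96.6 and 95.7 (HIF1A) and 94.5 and 95.5 (ARNT) at 4% O2. Hif3a, which encodes another HIF alpha subunit, had 2 sites (89.63 and 55.89). Siah2 (91.74), which encodes a ubiquitin ligase of prolyl hydroxylases, and Cited2 (92.02), which encodes a competitor of HIF1A for its coactivators, completed the 5. Egln2 and Egln3 had HIF1A without a co-bound region within 1 kb of an end. Thus 1 of the 3 prolyl hydroxylase genes had a co-bound site at an end.

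Other families of oxygen-dependent dioxygenases, counted together with related proteins, were represented too. JmjC histone demethylases and related genes had 7 of 22 genes with a site, among them Kdm3a (99.84), Jarid2 (96.34), Phf8 (96.01), Kdm5c (94.53), Kdm2b (72.62) and Kdm7a (59.37). Jmjd6 shared the site at Mettl23, 746 bp from its own start. Of the TET and ALKBH list, which holds nucleic acid demethylases, Tet2 (98.06) and Fto (66.64) had a site, and Alkbh1, Alkbh5 and Alkbh6 had regions that also overlapped ARNT at 20% O2. Collagen-modifying enzymes had 4 of 17, with P4ha2 (99.82), a collagen prolyl hydroxylase subunit, Plod3 (98.70), P4hb (98.28) and P3h3 (97.92). P4ha2 had another site 749 bp from its start, with a lower mean rank of 77.63. It lay over the same ARNT region, and its own HIF1A ranks at 4% O2 were 63.6 and 47.4.

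Genes of blood supply, iron and pH had 7 of 22 with a site. Vegfa, the main angiogenic growth factor, ranked 98.7 and 92.8 (HIF1A) and 97.4 and 86.1 (ARNT) at 4% O2, and 42.7 in HIF1A replicate 2 at 20% O2. Its relative Pgf had 2 sites over a shared ARNT region (96.35 and 89.35), the second of them without a HIF1A peak at 20% O2. Ero1a, an oxidase of disulphide formation, stood at 98.27, while Hmox1, haem oxygenase 1, stood at 61.83 with ranks of 93.9 and 41.9 (HIF1A) and 93.4 and 18.1 (ARNT). Tfrc, the transferrin receptor gene, had a region that also overlapped ARNT at 20% O2, and Epo had no HIF1A region within 1 kb of an end.

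Clock genes had 11 of 22 with a site, and 11 of the 12 with any HIF1A region at an end. They were on the repressor and output side of the clock: the period genes Per1, Per2 and Per3, the nuclear receptor repressors Nr1d1 and Nr1d2, the E-box repressors Bhlhe40 and Bhlhe41, Ciart, and the output factors Dbp, Tef and Hlf. Clock, Arntl and Npas2, which encode the activators, were among 10 with no HIF1A region within 1 kb of an end. The rest of these 10 are not named here. Cry1 had HIF1A without a co-bound region. The highest was Bhlhe40 with ranks of 99.9 and 99.5 (HIF1A) and 99.8 and 99.2 (ARNT) at 4% O2, and its other site stood at 87.79. Ciart followed (98.71). The others were lower, with Per1 at 85.47, Hlf at 84.63, Bhlhe41 at 83.76 and Nr1d1 at 80.23. The Dbp site, at a PAR-domain output factor, was nearest to an end of Car11 and stood at 76.21.

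Growth control genes had 10 of 24 with a site. Ddit4, an inhibitor of mTORC1, ranked 99.8 and 99.8 (HIF1A) and 99.7 and 99.7 (ARNT) at 4% O2. Ccng2, an unusual cyclin linked to cell cycle arrest, stood at 96.98, and Max, the shared partner of the MYC network, at 90.75. The MYC antagonists Mnt (78.24), Mxd4 (62.80) and Mxi1 (59.98) were lower, and the Mxi1 site was uneven between ARNT lists (83.7 and 4.92). Myc itself also had a site, with a mean rank of 56.41. Immediate early genes had 8 of 24 with a site and 5 with HIF1A without a co-bound region, and their highest was Ier3 (99.54).

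Housekeeping groups differed in how many genes had a site. Translation factors had 22 of 69 (31.9%), aminoacyl-tRNA synthetases 11 of 35 (31.4%) and spliceosome genes 14 of 48 (29.2%). Heat shock and chaperonin genes had 9 of 21, and nucleotide synthesis genes 7 of 25. Vacuolar ATPase and lysosome genes had 9 of 25, ubiquitin-conjugating enzymes named Ube2 had 9 of 37, and genes of protein folding in the endoplasmic reticulum had 5 of 20. Cytosolic ribosomal proteins had 14 of 81 (17.3%), proteasome subunits 5 of 39 (12.8%) and histone genes 4 of 100. Zinc finger genes named Zfp, at 39 of 367 (10.6%), and solute carriers, at 32 of 337 (9.50%), were close to the 10.4% of all genes.

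Genes of sympathoadrenal cells, the lineage from which neuroblastoma arises, had 1 of 20 with a site. It was at Chga, which encodes chromogranin A, with ranks of 88.6 and 76.8 (HIF1A) and 15.8 and 38.3 (ARNT) at 4% O2, and 78.0 in HIF1A replicate 2 at 20% O2. Th and Dbh, which encode enzymes of catecholamine synthesis, were among those with HIF1A without a co-bound region. Of the 7 sympathoadrenal genes with any HIF1A region at an end, 1 (14.3%) therefore had a co-bound site of the kind described and 5 (71.4%) had HIF1A alone, beside 61.6% and 33.2% over all such genes.

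Motifs were counted in the 300-base promoter windows, of which 1543 lay under a co-bound site, by an overlap of at least 1 bp. Of the 2018 sites, 1283 overlapped such a window, and the motif shares do not describe the others. A gene could have more than 1 window, and such windows could overlap, but the intervals treat windows as separate. With 1 window per gene, the ACGTG share under co-bound sites was 54.7%. Either strand was read. ACGTG was present in 848 of the 1543 (55.0%, 52.5 to 57.4), against 313 of 914 windows under HIF1A without ARNT (34.2%, 31.2 to 37.4), 3083 of 18204 without a HIF1A region (16.9%) and 21.1% of all 21037. Windows under regions that also overlapped ARNT at 20% O2 had it in 88 of 170 (51.8%). GCGTG was in 71.9% of windows under a co-bound site, against 64.6% under HIF1A without ARNT and 38.9% of all. CACGTG, which contains ACGTG, was in 19.6%, against 14.3% and 7.91%, and CGCGTG, which contains GCGTG, in 26.2%, against 23.7% and 12.3%. ACGTG or GCGTG was in 88.2% of windows under a co-bound site, against 79.0% under HIF1A without ARNT and 49.8% of all.

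These windows are rich in G and C, a median of 63.7% under a co-bound site, 62.7% under HIF1A without ARNT and 56.7% over all. Within each of 4 bands of like content the order for ACGTG was unchanged. In windows of 40 to 50% GC, of which 40 were under a co-bound site, it was in 40.0% of those, 32.7% under HIF1A without ARNT and 13.8% without HIF1A, and the Wilson intervals of both HIF1A classes overlapped. At 50 to 60% the shares were 55.6%, 32.6% and 17.9%, at 60 to 70% they were 55.8%, 35.2% and 20.3%, and at 70 to 80% they were 53.8%, 37.1% and 20.4%.

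**Figure D5:**
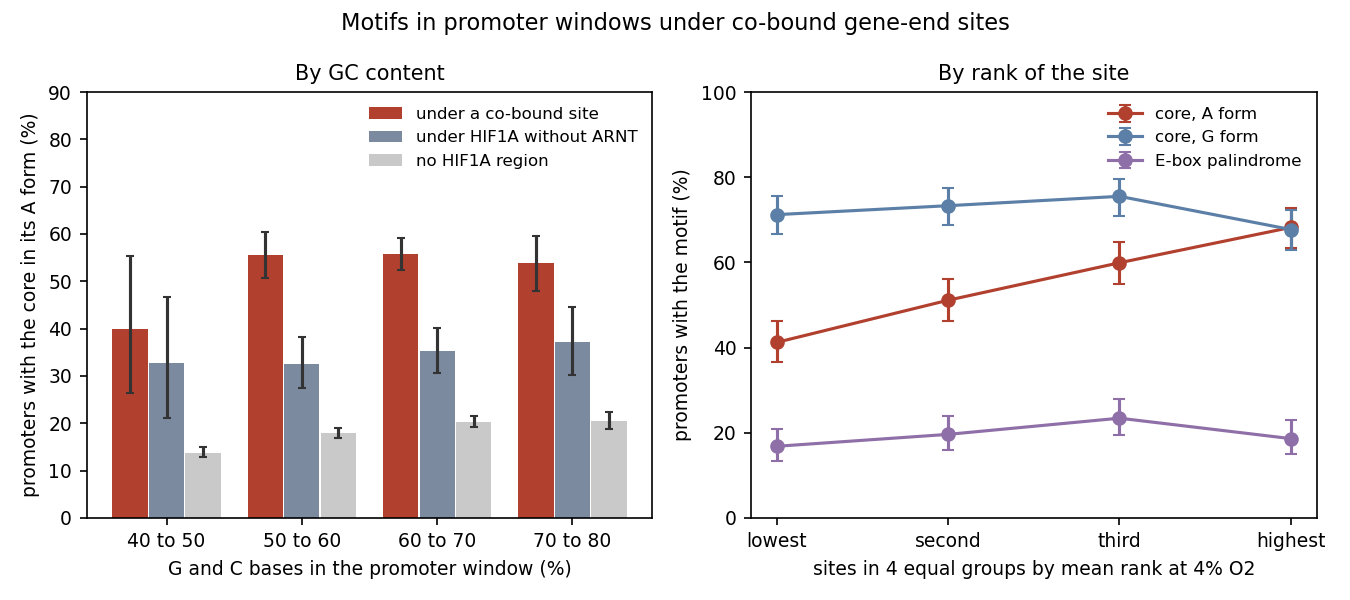
Left, share of promoter windows with ACGTG, the A form of the core (vertical axis, %), by their G and C content (horizontal axis, %), for windows under a co-bound site, under HIF1A without ARNT and without HIF1A, with 95% Wilson intervals for counting of windows. Right, share of windows under a co-bound site with the A form, with GCGTG as the G form, and with the E-box palindrome CACGTG, in 4 equal groups of sites by mean rank at 4% O2 (low to high): ACGTG runs between 41.2% in the lowest group and 68.2% in the highest, while GCGTG stays between 67.7% and 75.5%.

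The motifs differed in how they went with rank among the sites themselves. ACGTG was in 41.2% of windows in the lowest of 4 equal groups by mean rank, 51.1% in the second, 59.9% in the third and 68.2% in the highest. GCGTG was in 71.2%, 73.3%, 75.5% and 67.7% in the same order, and CACGTG in 16.8%, 19.6%, 23.4% and 18.6%. Thus ACGTG, but neither GCGTG nor CACGTG, was more frequent in each higher group. Gene-end HIF1A regions without ARNT had lower HIF1A ranks than the sites (medians of 66.5 and 34.7, against 88.3 and 73.0). Those ranks are of the 1244 regions without ARNT at 4% or 20% O2, while windows under HIF1A without ARNT were classed by ARNT at 4% O2 only. Windows under co-bound sites and under HIF1A without ARNT were not matched for rank. Whether their ACGTG difference goes with ARNT or with rank was not tested.

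The 1 bp HIF1A positions of replicate 2 at 4% O2 lay close to ACGTG more often than the bases around them. Of 1237 positions in windows under co-bound sites, 382 (30.9%, 28.4 to 33.5) were within 25 bp of the centre of an ACGTG, against 12.6% of all bases of the same windows. A position was counted once in each window that held it, so overlapping windows repeat positions, and the interval treats repeats as separate. Shares of bases were taken over whole windows, with motifs inside them only, and were not matched for position in the window. Under HIF1A without ARNT the shares were 106 of 800 positions (13.2%) and 6.98% of bases. For GCGTG, 33.5% of positions under co-bound sites were within 25 bp of a motif, against 20.6% of bases, and under HIF1A without ARNT 28.5%, against 16.9%. The Bnip3, Fam162a, Ddit4, Hilpda and P4ha2 promoters printed above are of this kind. A motif match is a description of letters, and binding of HIF1A to the motif itself was not measured.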

How the data were processed

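The submitters' processing notes name BWA, Picard, MACS2 and the build mm10, without versions or settings. Per the file headers and sample titles, the authors called peaks for each ChIP sample separately, HIF1A replicate 2 against input 5 and the others against input 4. Each deposited list gives a position and the authors' score per peak, whose scale is not named. Per the series' design text, the HIF1A replicate 2 lists came from combined sequencing runs. Per the file headers, all replicate 1 samples shared 1 lane, and ARNT replicate 2 was on another lane at 20% O2 and another flow cell at 4% O2, so lane and replicate cannot be told apart. Groups came from the sample titles.

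Peaks on chromosomes 1 to 19 and X were used (119042 of 119057). Peaks of a group were merged, a region was reproducible where both of the group's lists had a peak in it, and overlaps needed 1 bp. Genes came from RefSeq on GRCm38.p6, the build of mm10. Promoters were given for 17268 of 21631 protein-coding genes and supplied strand, which the gene table lacks. All 348 entries of the gene lists matched a gene, 1 by an alias, and 12 of the 29 lists were name patterns. Shares carry 95% Wilson intervals. HIF1A at 20% O2 was compared by an exact permutation test over its lists. The computation ran in Python 3.11.15 with pandas 2.3.3, numpy 2.4.6 and scipy 1.17.1, and the rule was tested on simulated lists.

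The sites and the gene lists were chosen with earlier results of these data known. Sites named with values were the 20 highest by mean rank at 4% O2, up to 8 per gene list, the 3 on each side of the distance limit, the 5 highest with no HIF1A peak and with both at 20% O2, genes with most sites, and the 5 highest at other ends. Other genes are named only to complete a list. Alternatives left out each list in turn (8) or changed a threshold, an overlap or the distance.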

Additional observations from a re-analysis of the deposited data

How the results depend on the processing

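Each result was recomputed with each of the 8 lists left out in turn and under 9 other settings, and the motif share under 1 more, chosen after seeing the data like its other alternatives. The number of glycolysis genes with a site moved by less than its limit in all 17 (7 to 13 over all of them, and 8 to 11 with a list left out). With the peaks above the median score of each list there were 1100 sites at 1252 genes, 2.64% with a reproducible HIF1A region at 20% O2, 44.5% without a HIF1A peak there and 62.8% of promoters with ACGTG. With the 1808 highest peaks of each list there were 327 sites at 372 genes, 2.75% with a reproducible HIF1A region at 20% O2, 94.0% nearer to a start and 67.5% with ACGTG. Starts made up 97.2% at 500 bp and 93.8% at 2 kb. Where any ARNT peak at 20% O2 excluded a site, 2.73% had a reproducible HIF1A region and 43.8% no HIF1A peak at 20% O2.

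With 1 list left out, there were 1693 to 2578 sites at 1870 to 2806 genes, 94.0% to 96.0% nearer to a start, and 49.8% to 61.3% of promoters with ACGTG. Where a group had 1 list left, every peak of that list counted as a region. The share with a HIF1A region at 20% O2 was 2.72% to 60.1%. The 60.1%, without HIF1A replicate 1 at 20% O2, is by construction the share with a replicate 2 peak given above. The share without a HIF1A peak at 20% O2 was 39.9% to 96.0%. Without HIF1A replicate 2 at 20% O2 it was 95.4%, by construction the share of sites without a replicate 1 peak. Without HIF1A replicate 1 at 4% O2 it was 96.0%, where sites are by construction the 1 bp positions of the remaining list. The HIF1A shares at 20% O2 therefore rested on which list was used. No paired analysis was possible because no test compared groups of samples: these results are counts of regions and genes, and the exact test compared classes of sites within each HIF1A list, which already pairs them. Depth is unknown, so a missing peak says only that none was called.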
